A study of Mus musculus with 4 samples.

Results

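Imprinted genes are expressed mainly from the copy inherited from 1 parent. The set described here holds 34 mouse genes that are known to be imprinted, without the insulin-like growth factor genes and Cdkn1c. They were chosen by name, with earlier results of these data known. Of the 34 members, 33 were listed with a read in at least 1 sample, among 18298 genes listed in all. RNA was sequenced from primary rib chondrocytes, the cells that make cartilage, which were taken from E18.5 embryos on a C57BL/6 background and cultured to passage 1. The control group was Senp6f/f without Cre (2 samples) and the mutant group was Dermo1-Cre;Senp6f/f (2 samples), so the floxed Senp6 alleles were shared by both groups. Dermo1-Cre is expressed from the Twist2 locus in mesenchymal progenitors of the skeleton and removes part of Senp6, which encodes a protease that takes SUMO2/3 chains off proteins. Whether a culture came from 1 embryo or from pooled embryos was not given in the sources used here. The p-values therefore measure the spread between these samples, which may in part be technical.

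Between 21.02 M and 30.99 M reads per sample were counted on genes (M, 1e6 reads). A gene entered the test if 2 or more samples had 10 or more counts, which held for 14123 genes, 30 of the members among them. Senp6 itself had 1125 and 2326 reads in the controls and 1839 and 1126 in the mutants, given here and below in the order of replicates 1 and 2, and the groups overlapped. Its log2 fold change was -0.56 ± 0.28 (SE, edgeR adjusted p = 0.409), and reads from the exons that are kept are still counted on the gene, so the count of Senp6 does not check the labels. Xist, the RNA of the inactive X chromosome, was read 11354 times in mutant replicate 2 and at most 5 times in the other samples, which is the pattern of cells from a female in that sample alone.

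At an imprinted cluster, a DNA stretch that is methylated on the copy from only 1 parent sets which genes are read from which copy. The protein ZFP57 binds the methylated hexamer TGCCGC at such stretches and brings in the co-repressor TRIM28, which keeps the mark through cell division. TRIM28 carries SUMO, and the study examined it as a target of SENP6. Many imprinted genes act on growth of the embryo: several paternally expressed members, such as Mest, Peg3 and Dlk1, are abundant in embryonic mesenchyme, while maternally expressed members, such as H19 and Grb10, are mostly known for limiting growth. Gene-level counts do not tell the parental copies apart, so the values below are total levels and not measurements of imprinting.

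The members covered a wide range of levels. RPKM, the read count divided by gene length and by the reads counted on genes, allows genes to be compared, and the members with an RPKM of at least 50 in any sample were H19, Mest, Gnas, Grb10, Rian, Peg3, Dlk1, Plagl1 and Ndn, which makes 9 of the 30 tested. Another 8 reached between 5 and 50 RPKM (Meg3, Mirg, Zim1, Peg10, Sgce, Nnat, Impact and Slc38a4). The other 13 stayed under 5 RPKM, the lowest being Usp29 at 0.150 RPKM in mutant replicate 1. H19, a noncoding RNA expressed from the maternal copy, was far above all other members. It ranked 6 and 8 among all genes by RPKM in the control samples and 12 and 10 in the mutant samples. H19 alone took between 44.1% and 46.6% of the reads of all members, and the members together took 1.62% and 1.29% of all reads in the control and 1.13% and 1.21% in the mutant samples. Mest and Gnas followed in the controls with mean RPKM of 519 ± 144 and 474 ± 86.4 (SD, n = 2), which did not differ beyond their spread. Grb10 came next at 275 ± 16.1 and Rian at 148 ± 15.3 (SD, n = 2). Peg3, Dlk1, Plagl1 and Ndn lay between 47.96 and 133 RPKM in the control samples and overlapped in part with each other.

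**Figure D1:**
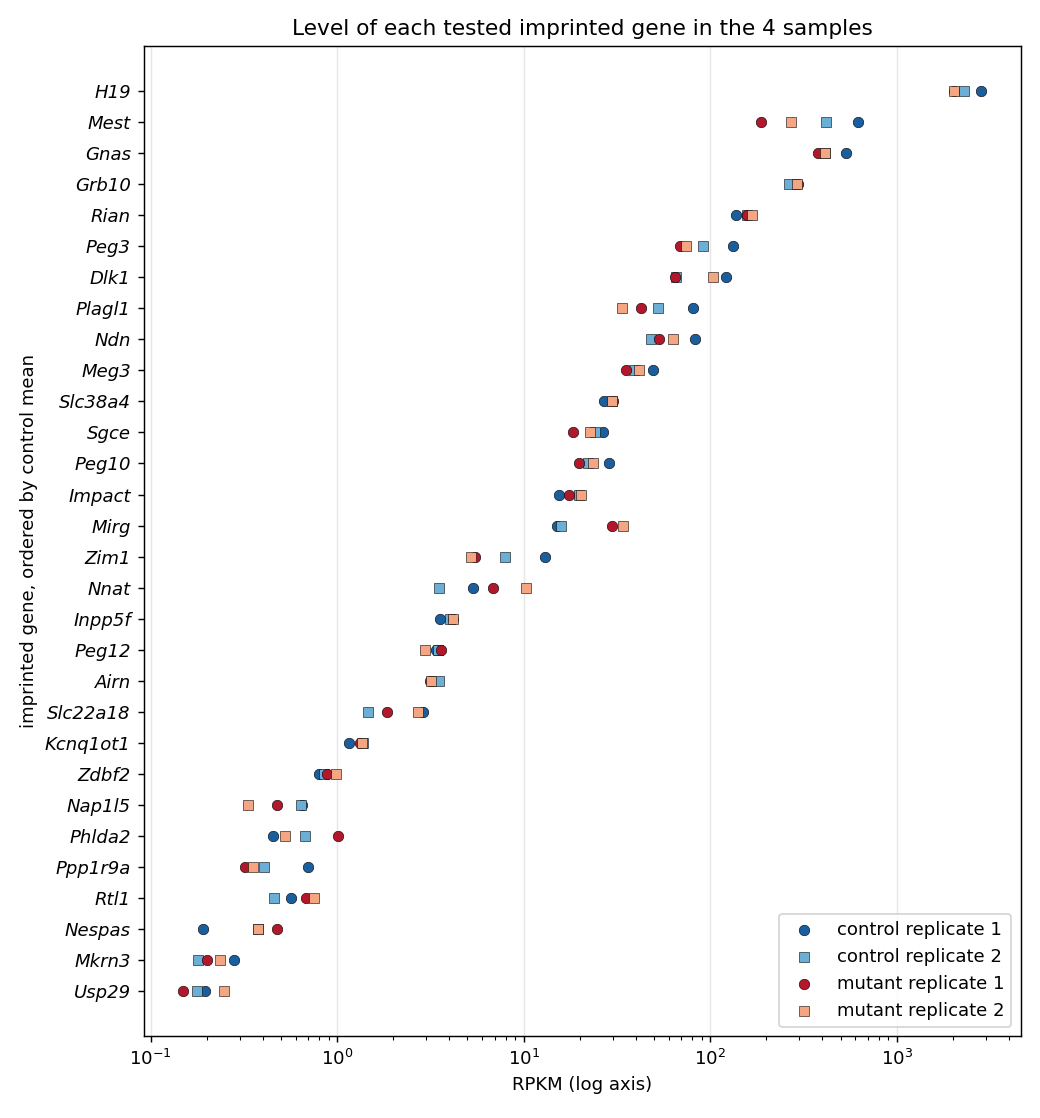
RPKM (log axis) of each of the 30 tested imprinted genes in control replicates 1 and 2 and mutant replicates 1 and 2, ordered by the control mean; each point is 1 sample. H19 lies between 2019 and 2820 RPKM, and Mest, Zim1 and Mirg show the clearest gaps between the groups.

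The comparison of mutant with control asks whether loss of Senp6 was accompanied by other levels of these genes. Only the mutants carried Cre, so an effect of the Cre allele itself cannot be told apart from loss of Senp6. By the quasi-likelihood test of edgeR, 0 of the 30 tested members passed an adjusted p of 0.05 in either direction, and 0 of all 14123 genes did (0% higher and 0% lower). The smallest adjusted p among the members was 0.0788 (edgeR), for Mirg. At an unadjusted p under 0.05, 2 of the 30 tested members were higher and 4 were lower, against 1312 and 887 of all 14123 genes. The deposited counts were also tested with DESeq2, where 1 member was higher (Mirg, 3.33% of those tested) and 4 were lower (Mest, Zim1, Plagl1 and Peg3, 13.3%) at an adjusted p under 0.05, against 3.07% higher and 1.86% lower of all genes.

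In counts per library size after TMM scaling (CPM), both mutant samples lay above both controls for 5 members (16.7%, against 25.4% of all genes) and below both controls for 10 members (33.3%, against 22.8% of all genes). With a log2 fold change of at least 0.5 in size as well, 2 members were higher (6.67%, against 11% of all genes) and 6 were lower (20.0%, against 6.73% of all genes). By RPKM in place of CPM, 7 members were higher and 9 lower without overlap, as Grb10 and Nespas joined the higher ones and Gnas left the lower ones. By CPM and with that fold change, the 2 higher were Mirg and Nnat, and the 6 lower were Mest, Zim1, Plagl1, Peg3, Ppp1r9a and Nap1l5. The median log2 fold change was -0.10 over the members tested and 0.01 over all genes tested. Leaving out 1 sample moved the median of the members to between -0.30 (without control replicate 2) and -0.03 (without control replicate 1). For the 9 members with an RPKM of at least 50 in any sample it was -0.31, with 5 lower (55.6%) and 0 higher without overlap. Plagl1 reached 50 RPKM in its controls only, so this cut-off can favour lower members. The share of all genes at that level was not computed. Among members expressed from the paternal copy the median was -0.10 (20 tested, 4 higher and 6 lower without overlap), and among those expressed from the maternal copy it was 0.02 (9 tested, 1 higher and 3 lower). Members of both kinds were thus found on either side. In bulk cultures, fewer cells of a type and less RNA per cell cannot be told apart.

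**Figure D2:**
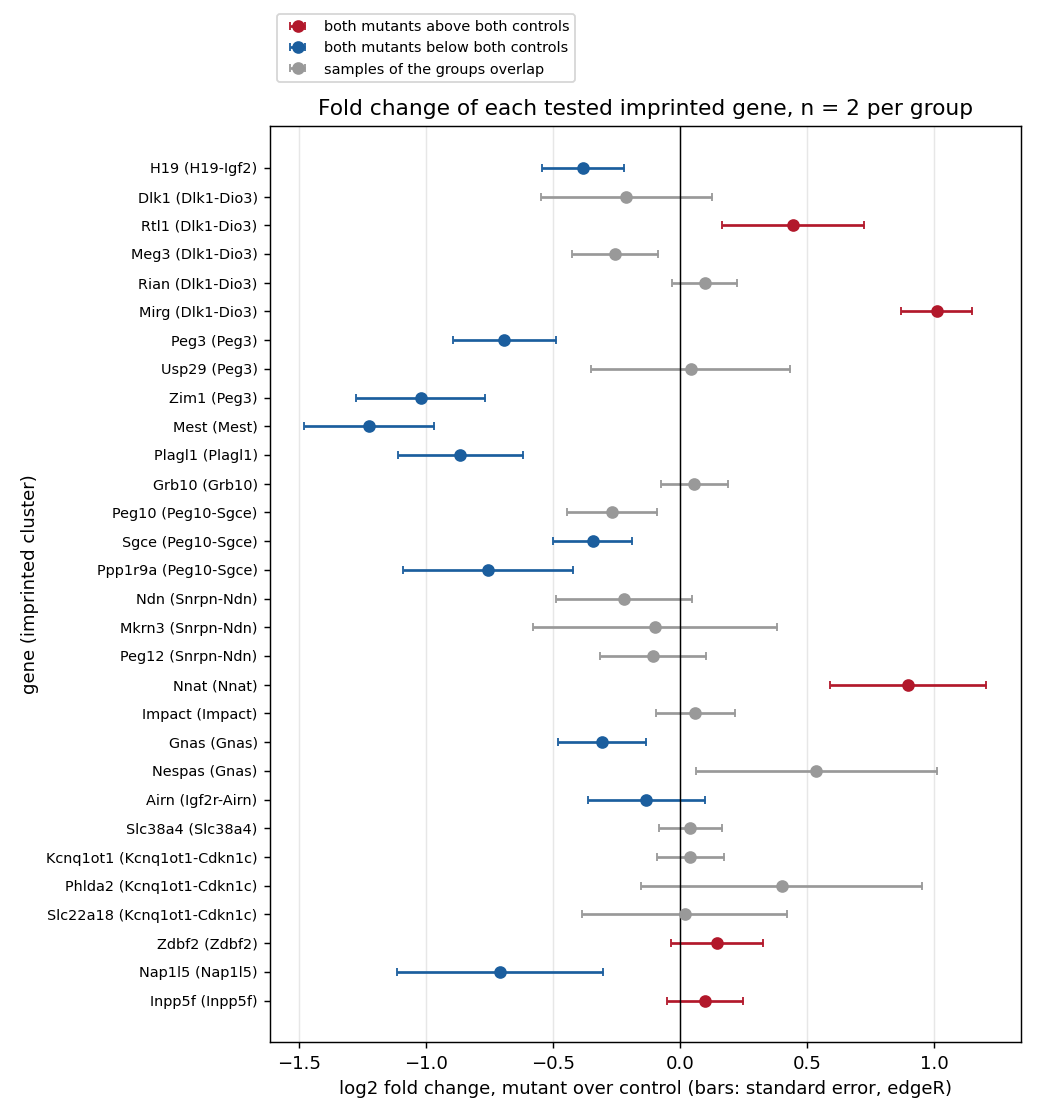
Log2 fold change of mutant over control (edgeR, all 4 samples; bars are the standard error) of each tested imprinted gene, grouped by imprinted cluster. Red points are the 5 genes with both mutant samples above both controls, blue points the 10 with both below, and grey points the 15 whose samples overlap; the values run from -1.22 for Mest to 1.01 for Mirg.

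Mest showed the largest difference of all members. This paternally expressed gene encodes a hydrolase-like protein of embryonic mesoderm. The controls had an RPKM of 621 and 417 (34996 and 29213 reads), and the mutants one of 188 and 273 (15654 and 20664 reads). Both mutant values lay under both control values, and each pair of replicates was itself spread. The log2 fold change was -1.22 ± 0.26 (SE, edgeR adjusted p = 0.108), or 0.429 times the control level, and the DESeq2 adjusted p was 7.37e-05. Mest ranked 94 and 129 among all genes in the controls and 298 and 216 in the mutants.

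Plagl1 encodes a zinc finger transcription factor that acts on other imprinted genes and on cell growth. It had an RPKM of 81.3 and 52.8 in the control and of 42.5 and 33.5 in the mutant replicates. The lower control and the higher mutant were 0.31 apart on the log2 scale of CPM, and the controls 0.68 apart. The log2 fold change was -0.86 ± 0.25 (SE, edgeR adjusted p = 0.174).

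The Peg3 cluster gave 2 lower members and 1 that was not. Peg3, a paternally expressed zinc finger gene, had an RPKM of 133 and 91.5 in the control and of 69.0 and 74.6 in the mutant replicates. Its mutant samples were close together and both under the controls, with a log2 fold change of -0.69 ± 0.20 (SE, edgeR adjusted p = 0.185). Zim1, a neighbouring zinc finger gene that is expressed from the maternal copy, had an RPKM of 13.04 and 7.95 in the control and of 5.47 and 5.22 in the mutant replicates. Here too the groups did not overlap, and the log2 fold change was -1.02 ± 0.25 (SE, edgeR adjusted p = 0.138). The 2 genes are read from opposite parental copies, and both were lower in both mutants. Zim1 amounted to 9.84% and 8.68% of the Peg3 RPKM in the controls and to 7.92% and 7.00% in the mutants. Usp29, a paternally expressed gene for a ubiquitin protease-like protein, starts beside Peg3 on the other strand and had only 30 to 51 reads per sample. Its log2 fold change was 0.04 ± 0.39 (SE), and its samples overlapped.

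For 4 of the lower members (Mest, Plagl1, Zim1 and Nap1l5) and for the higher Nnat, the sequence around the start is shown because it holds the hexamer that ZFP57 reads when methylated, and that of Peg3 because it does not. The windows are from RefSeq (GRCm38.p6) and run from 250 bases before to 50 bases after the start, 5′ to 3′ on the strand of the gene. Capitals mark TGCCGC or, for the other strand, GCGGCA. The deposited files give no coordinates, and the processing notes of the submitters name another build (mm9).
Mest (chr6:30737800-30738099, forward strand): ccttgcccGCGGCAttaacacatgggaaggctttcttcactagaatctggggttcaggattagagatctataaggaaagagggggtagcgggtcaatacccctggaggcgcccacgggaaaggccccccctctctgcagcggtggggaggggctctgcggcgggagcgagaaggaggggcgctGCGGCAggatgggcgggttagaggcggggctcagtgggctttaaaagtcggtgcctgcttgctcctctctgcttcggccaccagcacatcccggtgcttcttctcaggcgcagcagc
Plagl1 (chr10:13090582-13090881, forward strand): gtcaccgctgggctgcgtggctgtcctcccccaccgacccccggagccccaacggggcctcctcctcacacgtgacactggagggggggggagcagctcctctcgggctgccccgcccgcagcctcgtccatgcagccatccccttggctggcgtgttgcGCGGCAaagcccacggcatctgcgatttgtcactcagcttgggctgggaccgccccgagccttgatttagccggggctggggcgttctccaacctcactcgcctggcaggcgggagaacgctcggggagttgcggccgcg
Zim1 (chr7:6696383-6696682, reverse strand): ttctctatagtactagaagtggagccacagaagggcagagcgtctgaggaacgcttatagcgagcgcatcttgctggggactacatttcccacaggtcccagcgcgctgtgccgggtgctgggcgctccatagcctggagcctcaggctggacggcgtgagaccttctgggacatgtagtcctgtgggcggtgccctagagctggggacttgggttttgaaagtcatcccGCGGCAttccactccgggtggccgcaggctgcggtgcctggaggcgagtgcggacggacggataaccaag
Nap1l5 (chr6:58907077-58907376, reverse strand): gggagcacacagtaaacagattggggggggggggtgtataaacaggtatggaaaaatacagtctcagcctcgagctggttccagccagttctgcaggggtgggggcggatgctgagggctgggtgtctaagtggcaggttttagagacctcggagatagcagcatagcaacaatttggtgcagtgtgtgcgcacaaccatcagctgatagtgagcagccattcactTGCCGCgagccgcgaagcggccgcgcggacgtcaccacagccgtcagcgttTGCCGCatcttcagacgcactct
Nnat (chr2:157559828-157560127, forward strand): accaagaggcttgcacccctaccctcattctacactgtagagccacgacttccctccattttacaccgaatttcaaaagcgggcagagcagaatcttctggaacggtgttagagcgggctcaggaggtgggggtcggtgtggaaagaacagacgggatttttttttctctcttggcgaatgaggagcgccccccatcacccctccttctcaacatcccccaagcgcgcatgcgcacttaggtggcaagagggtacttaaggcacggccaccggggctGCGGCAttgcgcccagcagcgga
Peg3 (chr7:6730370-6730669, reverse strand): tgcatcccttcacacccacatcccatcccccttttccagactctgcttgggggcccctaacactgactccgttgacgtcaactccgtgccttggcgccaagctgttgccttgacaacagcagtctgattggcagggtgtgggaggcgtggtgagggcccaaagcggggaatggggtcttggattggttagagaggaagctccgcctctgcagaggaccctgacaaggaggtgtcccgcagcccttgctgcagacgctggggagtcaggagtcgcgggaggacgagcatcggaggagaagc

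The Mest window held 2 copies of the hexamer, the Nap1l5 window 2, and the Plagl1, Zim1 and Nnat windows 1 each, counting both strands. A second RefSeq start of Mest, 3 bases on, shares both copies, while a start further upstream holds none. The Peg3 window shares 263 bases with the window of Usp29, which also holds none. RefSeq windows were matched for 27 of the 34 members, with 38 windows in all, and 9 of the 38 (23.7%) held the hexamer, against 11.6% of all 32851 windows. Counted by gene, 8 of the 27 members (29.6%) held the hexamer in at least 1 window, and the share of all genes was not computed. Of the 8 members with non-overlapping groups and a log2 fold change of at least 0.5 in size, 5 had it. The share among all genes with such differences was not computed, so this count does not test a link between hexamer and difference. Peg3, Ppp1r9a and Mirg had none. Zdbf2, Grb10 and Meg3 had it too, with log2 fold changes of 0.14, 0.06 and -0.26, so the hexamer was found in members of every direction. Member windows were richer in CpG, with a median of 15 CpG per window against 7 over all windows, and the hexamer itself holds a CpG. Methylation and binding were not measured here.

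The Dlk1-Dio3 domain lies on chromosome 12 and holds the paternally expressed Dlk1 and Rtl1 and the maternally expressed noncoding RNAs Meg3, Rian and Mirg, which follow each other on the same strand. Mirg, which spans a group of microRNAs, was the highest member by fold change. It was read 416 and 547 times in the control and 1220 and 1273 times in the mutant replicates, an RPKM of 15.1 and 15.9 against 29.9 and 34.3. The control samples were nearly equal and both mutants lay about 2.01-fold above them. The log2 fold change was 1.01 ± 0.14 (SE, edgeR adjusted p = 0.0788), and the DESeq2 adjusted p was 3.99e-05. Its rank among all genes went from 4475 and 4427 in the controls to 2489 and 2209 in the mutants.

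The RNAs that precede Mirg in the domain did not show this difference. Rian, which carries small nucleolar RNAs, had an RPKM of 137 and 158 in the control and of 157 and 168 in the mutant replicates, with overlapping groups. Its log2 fold change was 0.10 ± 0.13 (SE, edgeR adjusted p = 0.779). Meg3 had 49.4 and 39.2 RPKM in the control and 35.2 and 41.5 RPKM in the mutant replicates, which also overlapped, at -0.26 ± 0.17 on the log2 scale (SE, edgeR adjusted p = 0.542). Within a sample, the RPKM of Mirg was 11.0% and 10.1% of that of Rian in the controls and 19.04% and 20.5% in the mutants. Against Meg3 it was 30.5% and 40.6% in the controls and 85.1% and 82.5% in the mutants. The ratio thus separated the groups by either reference. With 2 samples against 2, an exact permutation test of such a ratio cannot give a p below 0.333.

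On the paternal side of the domain, Dlk1, a membrane protein that restrains adipocyte differentiation, had an RPKM of 122 and 65.7 in the control and of 64.8 and 104 in the mutant replicates. The groups overlapped, the controls differing more from each other than the group means did (log2 fold change -0.21 ± 0.34, SE, edgeR adjusted p = 0.819). Rtl1, a gene derived from a retrotransposon, was low, with 62 and 63 reads in the control and 111 and 111 in the mutant replicates. Both mutants lay above both controls at 0.44 ± 0.28 on the log2 scale (SE, edgeR adjusted p = 0.514). RNA read from the maternal copy runs antisense to Rtl1, and the library protocol in the labels does not mark strand, so its reads cannot be told apart from those of Rtl1.

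**Figure D3:**
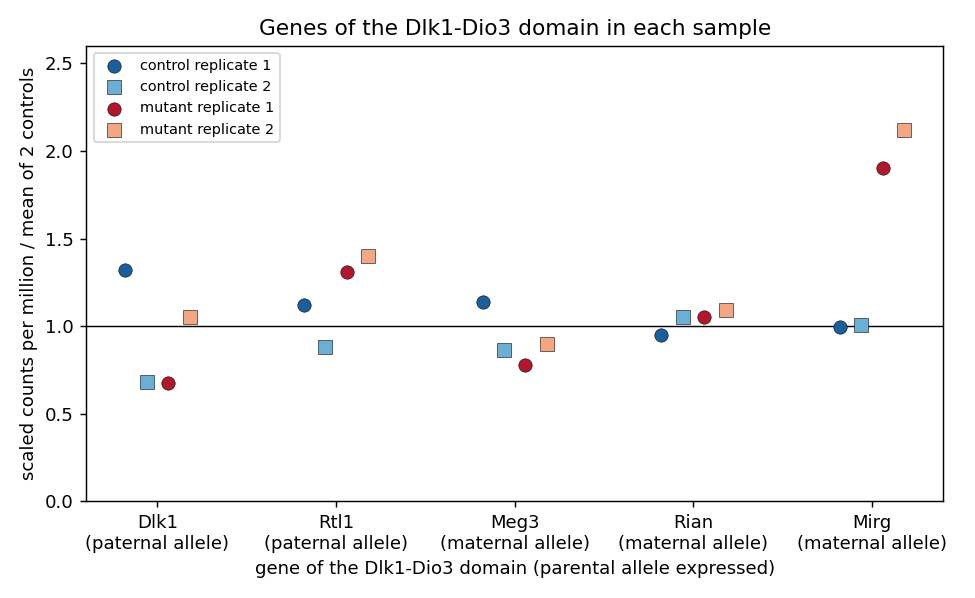
CPM (TMM-scaled) of the 5 genes of the Dlk1-Dio3 domain, each divided by the mean of the 2 control samples; each point is 1 sample. Mirg is the gene whose mutant samples stand clearest from the controls (2.01-fold by edgeR), while Dlk1, Meg3 and Rian overlap.

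By RefSeq (GRCm38.p6), Mirg spans 10 microRNA hairpins with 19 mature microRNAs on its strand. A few are shown because their host RNA was the member with the highest fold change, with the seed (bases 2 to 8) in capitals. The first 2 share a seed, and the others have a seed of their own within Mirg.
mmu-miR-453: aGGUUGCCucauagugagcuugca
mmu-miR-496a-5p: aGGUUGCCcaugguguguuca
mmu-miR-154-5p: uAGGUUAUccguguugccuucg
mmu-miR-377-3p: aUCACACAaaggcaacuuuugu
mmu-miR-409-3p: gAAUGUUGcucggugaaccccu
mmu-miR-410-3p: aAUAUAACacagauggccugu

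The libraries were made from poly(A)-selected RNA fragments, so the counts are those of the host RNA, and the mature microRNAs were not measured. By the same coordinates Rian holds 3 hairpins, Meg3 1 and H19 1.

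Nnat encodes neuronatin, a small membrane proteolipid of the endoplasmic reticulum. It was read 138 and 113 times in the control and 261 and 354 times in the mutant replicates, an RPKM of 5.37 and 3.53 against 6.89 and 10.3. Both mutants lay above both controls, while each pair was spread, and the log2 fold change was 0.90 ± 0.31 (SE, edgeR adjusted p = 0.233). Nnat lies within Blcap, on the other strand. Blcap had a log2 fold change of 0.36 ± 0.14 (SE, edgeR adjusted p = 0.273), with both mutants above both controls.

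Nap1l5, a nucleosome assembly protein gene, had 26 and 32 reads in the control and 28 and 18 in the mutant replicates, an RPKM of 0.648 and 0.641 against 0.473 and 0.334. The groups did not overlap after scaling, at -0.71 ± 0.41 on the log2 scale (SE, edgeR adjusted p = 0.471). It lies within Herc3 on the other strand, and Herc3, a ubiquitin ligase gene, had the opposite direction with 1.10 ± 0.24 (SE, edgeR adjusted p = 0.115). As the protocol does not mark strand, reads shared by such overlapping genes cannot be told apart.

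In the Peg10-Sgce cluster on chromosome 6, 2 of the 3 members lay lower in both mutants, and none of the 3 passed edgeR or DESeq2. Sgce, which encodes epsilon-sarcoglycan, had an RPKM of 26.5 and 24.1 in the control and of 18.48 and 22.7 in the mutant replicates, without overlap (log2 fold change -0.34 ± 0.16, SE, edgeR adjusted p = 0.362). Peg10, a retrotransposon-derived gene that shares its start region, had 28.5 and 22.1 against 19.9 and 23.6 RPKM, and these overlapped. Ppp1r9a, the maternally expressed gene of the actin-binding protein neurabin, was read only 95 to 140 times. Its RPKM was 0.698 and 0.405 in the control and 0.321 and 0.352 in the mutant replicates, a log2 fold change of -0.75 ± 0.34 (SE, edgeR adjusted p = 0.351). Both mutants lay under both controls, and its controls were further apart (0.84 on the log2 scale of CPM) than the nearest samples of the 2 groups (0.23).

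H19 had an RPKM of 2820 and 2301 in the control and of 2019 and 2037 in the mutant replicates. The mutants were nearly equal and both lay under both controls, with a log2 fold change of -0.38 ± 0.16 (SE, edgeR adjusted p = 0.325). H19 and the growth factor gene Igf2 share enhancers and are read from opposite copies. Igf2 had an RPKM of 1585 and 1205 in the control and of 1171 and 1132 in the mutant replicates, and a log2 fold change of -0.32 ± 0.18 (SE, edgeR adjusted p = 0.457). The ratio of H19 to Igf2 RPKM was 1.78 and 1.91 in the controls and 1.72 and 1.80 in the mutants, which overlapped.

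Grb10, an adaptor that dampens insulin and IGF receptor signalling, had an RPKM of 286 and 264 in the control and of 296 and 293 in the mutant replicates. By scaled counts the samples overlapped, while by RPKM both mutants were above both controls, and the log2 fold change was only 0.06 ± 0.13 (SE, edgeR adjusted p = 0.885). Gnas, which encodes the stimulatory G protein alpha subunit and is imprinted in some tissues and transcripts only, had 535 and 413 RPKM in the control and 379 and 413 RPKM in the mutant replicates. Its log2 fold change was -0.31 ± 0.17 (SE, edgeR adjusted p = 0.463), and control replicate 2 and mutant replicate 2 were level by RPKM, while by CPM both mutants lay just under both controls. Nespas, the paternally expressed antisense RNA of the Gnas locus, had 9 to 33 reads per sample, which overlapped by CPM, while by RPKM both mutants (0.474 and 0.378) lay above both controls (0.1905 and 0.374). The gene-level count of Gnas holds several imprinted transcripts together.

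Kcnq1ot1 and Airn are long noncoding RNAs that silence neighbouring genes on their own chromosome. Kcnq1ot1, which silences a maternally expressed domain of chromosome 7, had 2020 to 3414 reads, an RPKM of 1.15 and 1.38 in the control and of 1.32 and 1.36 in the mutant replicates, and a log2 fold change of 0.04 ± 0.13 (SE, edgeR adjusted p = 0.918). Reads covered only 25.1% to 29.3% of its length of 83437 bases, as the deposited coverage gives it. Of the protein genes in this domain, the growth-limiting Phlda2 had 7 to 23 reads and the transporter gene Slc22a18 had 60 to 120 reads, and the samples of both overlapped. Airn, which silences Igf2r, had an RPKM of 3.23 and 3.53 in the control and of 3.16 and 3.19 in the mutant replicates. Both mutants lay under both controls, at -0.13 ± 0.23 on the log2 scale (SE, edgeR adjusted p = 0.838), and Airn overlaps Igf2r on the other strand. Igf2r was at 57.6 and 57.2 against 70.1 and 66.8 RPKM (log2 fold change 0.21 ± 0.12, SE, edgeR adjusted p = 0.486). Cdkn1c, the cell cycle inhibitor gene of the Kcnq1ot1 domain, overlapped, with 193 and 79.9 against 103 and 161 RPKM.

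Of the genes in the cluster around Snrpn and Ndn, whose loss on the paternal copy underlies Prader-Willi syndrome in humans, Ndn was the abundant one. Ndn encodes necdin, a growth-restraining protein. Its RPKM was 83.2 and 47.96 in the control and 53.4 and 63.1 in the mutant replicates, with both mutants between the controls (log2 fold change -0.22 ± 0.27, SE, edgeR adjusted p = 0.755). Peg12 was steady, with 3.41 and 3.49 RPKM in the control and 3.61 and 2.98 RPKM in the mutant replicates. Mkrn3, a RING finger gene, had 12 to 17 reads, and Magel2, a relative of necdin, had 17 and 9 reads in the control and 4 and 8 in the mutant replicates, which was too few for the test. Snrpn was listed in none of the 4 samples and so has a count of 0 under the rule. Whether the annotation used for counting held it is not given in the sources used here.

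The remaining members differed little. Slc38a4, an amino acid transporter gene, had an RPKM between 26.8 and 30.2 in all 4 samples and a log2 fold change of 0.04 ± 0.12 (SE). Impact, a regulator of the kinase GCN2, lay between 15.5 and 20.4 RPKM, at 0.06 ± 0.16 (SE). Zdbf2, a zinc finger gene, was at 0.799 and 0.846 RPKM in the control and at 0.882 and 0.99 RPKM in the mutant replicates. The phosphatase gene Inpp5f was at 3.54 and 4.02 against 4.16 and 4.16 RPKM. For both of them the mutants were above the controls by less than 1 standard error (0.14 ± 0.18 and 0.10 ± 0.15 on the log2 scale). Ascl2, a transcription factor gene of the placenta, had 2 to 6 reads per sample and was not tested. Rasgrf1, an exchange factor gene for RAS, had 2 reads in control replicate 2, 2 in mutant replicate 2 and 0 in the others, where a count of 0 allows up to 0.143 and 0.0968 CPM (3 counts). A difference of these 2 genes was not detectable at this depth.

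The size of several differences rested on control replicate 1. It lay above control replicate 2 for 9 of the 10 members that were lower in both mutants, and for 20 of all 30 tested members, against 49.6% of all genes with a count in every sample. For these 10, the median distance between the controls was 0.51 on the log2 scale, and that between the mutants was 0.10. Over the 30 tested members these medians were 0.37 and 0.18, and over all genes with a count in every sample 0.27 and 0.15. Without control replicate 1, the log2 fold change was -0.88 for Mest, -0.59 for Zim1, -0.49 for Plagl1, -0.37 for Peg3 and -0.29 for Ppp1r9a. Without control replicate 2 it was -1.53, -1.39, -1.19, -0.98 and -1.15 in the same order. H19 went from -0.20 to -0.57 and Gnas from -0.08 to -0.53 when control replicate 1 or control replicate 2 was left out. Mirg stayed between 0.93 and 1.09 with any 1 sample left out. Nnat ranged from 0.57 without control replicate 2 to 1.25 without control replicate 1. Without mutant replicate 2, the sample with Xist reads, the values were -1.49 for Mest and 0.93 for Mirg.

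**Figure D4:**
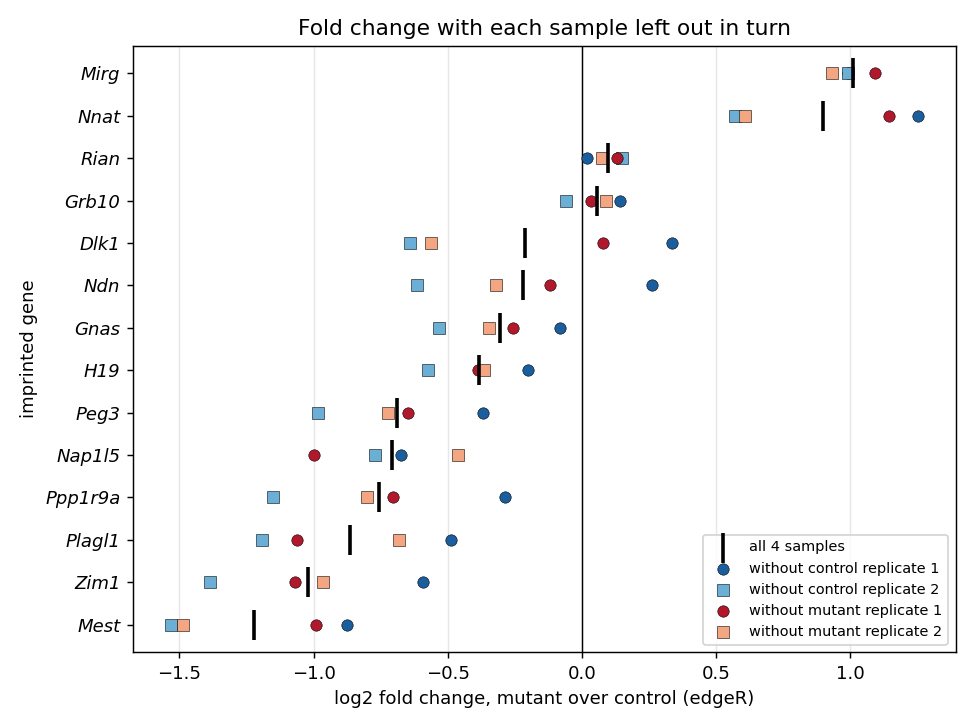
Log2 fold change of mutant over control (edgeR) for the 14 imprinted genes with full values, with all 4 samples (black bars) and with each sample left out in turn (points). Mirg stays between 0.93 and 1.09, while leaving out control replicate 1 moves Dlk1 to 0.33 and Ndn to 0.26, above 0.

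Of 48 other genes reported as imprinted in some mouse tissue, 39 were tested. At an unadjusted p under 0.05 in edgeR, 5 of the 39 were higher and 5 lower, against 1312 and 887 of all 14123 genes. None passed an adjusted p of 0.05 in edgeR, and 4 were higher and 2 were lower with DESeq2. Those higher with DESeq2 make 10.3% and those lower 5.13% of the list, against 3.07% and 1.86% of all genes. Both mutants were above both controls for 10 (25.6%, against 25.4% of all genes) and below for 11 (28.2%, against 22.8%), and the median log2 fold change was -0.04. The largest without overlap were Gatm, an enzyme gene of creatine synthesis, at 1.71 ± 0.29 (edgeR adjusted p = 0.0871), and Htr2a, a serotonin receptor gene, at 1.50 ± 0.34 (edgeR adjusted p = 0.1199). On the lower side they were Klf14, a transcription factor gene near Mest, at -1.85 ± 0.56 (edgeR adjusted p = 0.194), and Dcn, which encodes the matrix proteoglycan decorin, at -1.41 ± 0.39 (edgeR adjusted p = 0.167), all with SE on the log2 scale.

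Of 30 genes whose products set, keep or remove DNA methylation and other marks at imprinted genes, 29 were tested. None passed an adjusted p of 0.05 in edgeR or in DESeq2. At an unadjusted p under 0.05 in edgeR, 1 of the 29 was higher and 1 lower, against 1312 and 887 of all 14123 genes. Trim28 had an RPKM of 129 and 144 in the control and of 139 and 134 in the mutant replicates, and its log2 fold change was -0.04 ± 0.12 (SE, edgeR adjusted p = 0.910). Zfp57 had 7.38 and 10.1 against 9.58 and 10.8 RPKM, at 0.18 ± 0.18 (SE, edgeR adjusted p = 0.677). Both overlapped between the groups. These are RNA levels, and protein was not measured here. By western blot, the study reported less total TRIM28 protein and more of its sumoylated form in E18.5 mutant rib cartilage. The 2 mutants lay above both controls for 4 of the 29 factors (13.8%, against 25.4% of all genes). They lay below both controls for 6 (20.7%, against 22.8% of all genes). Setdb1, the histone methyltransferase gene that acts with TRIM28, was higher in both mutants at 0.53 ± 0.14 (SE, edgeR adjusted p = 0.151), and Ezh2 at 0.30 ± 0.18 (SE). Dnmt3l, a cofactor in setting DNA methylation, and Tet1, whose product oxidises it, were lower in both mutants. Their log2 fold changes were -0.78 ± 0.43 and -0.64 ± 0.26 (SE), and neither passed the edgeR test. Dnmt3l had few reads, with 18 and 28 in the control and 15 and 19 in the mutant replicates.

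RNA levels of cell type markers differed between the groups as well, and the shares of cells were not measured. Of all genes tested, 25.4% lay higher and 22.8% lower in both mutants without overlap. Chondrocyte markers were lower in both mutants for 12 of 15 tested (80.0%, 17 in the list, with Snorc and Cnmd not listed under these symbols). Their summed RPKM was 1015 to 1044 in the control and 520 to 656 in the mutant samples. A gene may be listed under an earlier symbol, so absence of a symbol here and below is not a measured level of 0. Muscle markers were higher in both mutants for 10 of 11 tested (90.9%, 14 in the list, with Myf5 and Mymk not listed under these symbols). Their sum was 33.4 to 97.95 against 184 to 209 RPKM. Adipocyte markers were lower in both mutants for 5 of 6 (83.3%), and their sum was 57.9 to 188 against 31.0 to 42.3 RPKM. Neural and Schwann markers were higher for 4 of 6 tested (66.7%, 10 in the list), at 44.2 to 60.6 against 69.5 to 81.1 RPKM. Osteoblast markers were lower for 5 of 7 tested (71.4%, 9 in the list), at 498 to 552 against 512 to 654 RPKM. Most of that sum was Spp1, which encodes osteopontin, the 1 marker of the list that was higher in both mutants (310 and 468 against 479 and 600 RPKM, named after its values were seen). Fibroblast markers were lower for 4 and higher for 2 of 11 (36.4% and 18.2%), at 8865 to 12630 against 6634 to 9027 RPKM. Blood and macrophage markers (4 tested of 9, Hbb-b1 and Adgre1 not listed under these symbols) summed to 15.6 to 17.7 against 7.24 to 10.7 RPKM. Endothelial markers (5 tested of 7) summed to 0.962 to 1.75 against 1.14 to 1.17 RPKM, and epithelial markers (3 tested of 6) to 4.29 to 10.8 against 21.5 to 27.5 RPKM. The part of these cells in the levels of Mest, Mirg and the other members was not tested.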

How the data were processed

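The authors deposited, per sample, unnormalized read counts of genes, RPKM values and the share of each gene's length under reads (percent). Here RPKM equalled the count scaled by the deposited length and the total of counted reads. The processing notes name SAMtools and mm9, and the aligner, counter and annotation are not given in the sources used here. A gene missing from a sample's list was set to 0. Counts were analysed with edgeR 4.0.16 in R 4.3.3 (robust quasi-likelihood F test, TMM factors 0.966 to 1.03) on genes reaching 10 counts in 2 or more samples, and p-values were adjusted over those genes (Benjamini-Hochberg). Standard errors come from the F statistic. Alternatives were DESeq2 1.42.0, its size factors in edgeR, other filters, the replicate number as a block, limma 3.58.1 on RPKM with 1 or 0.1 added before log2, and leaving out each sample. Groups and replicate numbers come from the labels. The fit was tested before use on simulated counts with 1 dispersion set for all genes. There edgeR recovered 51% of 2-fold and 100% of 4-fold changes at an adjusted p under 0.05, and DESeq2 48% and 97%. A 2-fold change could thus be missed, and the spread of the real samples may differ from that setting. In the real samples differences over 4-fold did not pass either. The neural marker Stmn2, named after its values were seen, was at 3.26 ± 0.29 on the log2 scale (SE, edgeR adjusted p = 0.0737). The recovery in the simulation therefore does not give that in the real samples.

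The members and lists were chosen with earlier results of these data known. Full values were given for members without overlap and a log2 fold change of at least 0.5 in size and for those with an RPKM of at least 50 in any sample, and other members by range and counts. Of the 2 lists of imprinted genes and imprint factors, the 2 genes with the largest differences without overlap in each direction were named, with Igf2, Igf2r, Cdkn1c, Trim28 and Zfp57. Blcap and Herc3 were named after their values were seen, as genes that overlap a member. The replicates of a group differed by more than counting noise (chi-square over its degrees of freedom 50.3 in the control and 24.1 in the mutant pair), so no pair was treated as a single library. This does not show whether they came from separate animals. Intervals from counts cover counting error only.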

Additional observations from a re-analysis of the deposited data

How the results depend on the processing

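No imprinted gene and no other gene passed an adjusted p of 0.05 in edgeR with size factors of DESeq2, with at least 10 counts in every sample, or in limma on log2(RPKM + 1) or log2(RPKM + 0.1). DESeq2 gave 697 genes, 5 of them members (Mirg, Mest, Zim1, Plagl1 and Peg3). Without a filter on low counts edgeR gave 286 genes, of which 1 was a member (Mirg). The replicate number as a block gave 117 genes and 0 members. Samples with the same number did not deviate together (correlation of -0.043 across genes, which are not independent replicates). With 2 samples per group this cannot decide whether they were paired, and the labels do not say. With 1 sample left out, between 105 and 2740 genes and between 1 and 12 members passed, and the number of members without overlap ranged from 19 to 28, where 67.0% to 84.9% of all genes had none. Control replicate 2 gave the highest counts when left out (2740 genes and 12 members) and mutant replicate 2 the lowest (105 and 1, which was Mest). Leaving out control replicate 1 gave 636 genes and 3 members, and leaving out mutant replicate 1 gave 359 and 3. In these fits the lone sample is assumed to vary like the other group. The cause was not tested. The median of the members stayed below 0, between -0.30 and -0.03. Dlk1 turned to 0.33 without control replicate 1 and to 0.08 without mutant replicate 1 (range from -0.64), Ndn to 0.26 without control replicate 1 (range from -0.61), and Grb10 to -0.058 without control replicate 2 (range up to 0.14). The other 11 genes with full values kept their direction under every alternative listed here. At the lowest depth, 3 reads correspond to 0.143 CPM.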
